A study of Homo sapiens with 9 samples.

Results

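The transcriptome of SGPL1 knockout cells was compared with that of wild-type cells across all genes in H295R, a steroid-producing human cell line that originated in a carcinoma of the adrenal cortex. The comparison rests on 6 of the 9 libraries of the series: 3 labelled wild type (WT) and 3 labelled SGPL1 knockout (KO), chosen by their titles and genotype labels. The other 3 libraries are labelled SGPL1 overexpression (OE) and entered the estimate of the spread between libraries, the principal components and a check of the chromosome blocks. Some of the changes described below were also found in OE against WT, so they are not particular to KO. OE values of single genes are given for a few genes only. All cells were untreated and grown in one medium to near confluence, polyadenylated RNA was sequenced, and per the design text the 3 libraries of each group are biological replicates. The labels do not say whether the KO cells are 1 clone or a pool, nor which part of the gene was edited. With no statement of separate cultures, the spread that p-values are set against may be partly technical.

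SGPL1 encodes sphingosine-1-phosphate lyase, an enzyme of the endoplasmic reticulum membrane. It cleaves the signalling lipid sphingosine-1-phosphate (S1P) irreversibly into a fatty aldehyde and phosphoethanolamine, which is the only exit from the sphingolipid pathway and feeds the synthesis of phosphatidylethanolamine. Adrenocortical cells take up or make cholesterol, store it as esters and convert it to steroids, starting with its transport into mitochondria by STAR. Inherited loss of SGPL1 causes a disease of the kidney and the adrenal gland.

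The WT and KO libraries held 8006873 to 9351139 counts assigned to genes, and 14150 genes passed the filter on low counts. No pair of libraries of a group agreed within sampling noise, and the first principal component (49% of the variance) separated the KO from the WT libraries. All 9 adrenocortical identity genes were expressed, with a summed level of 2666.1 to 3027.5 counts scaled to library size (CPM) in WT and 3620.8 to 4287.3 CPM in KO. Markers of other cells that an adrenal sample could hold were low. TH, DBH, PNMT, PHOX2A and SLC18A1 of the medulla had no count, as did PTPRC, CD3E, CD68, LYZ and ITGAM of leukocytes and VWF, TEK and ERG of endothelium. The endothelial list summed to 56.4 to 78.1 CPM in WT and 8.88 to 15.1 CPM in KO, led by EGFL7, which lies in a shifted block of chromosome 9 described below. In bulk RNA, fewer cells of a type and less RNA per cell cannot be told apart.

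SGPL1 (ENSG00000166224, chromosome 10, 70815948 to 70881184, GRCh38) was read first as a check of the labels. Its level was 101.5, 83.4 and 98.1 CPM in the WT libraries and 47.2, 43.9 and 53.8 CPM in the KO libraries. Every KO library lay below every WT library. The log2 fold change was -0.97 ± 0.14 (SE; edgeR adjusted p = 0.000105). In the libraries labelled OE, SGPL1 was at 98.1, 81.3 and 101.2 CPM, -0.01 on the log2 scale against WT (edgeR adjusted p = 0.966). The counts cover the whole gene, so transcripts that carry an edit still count, and the gene lies in none of the blocks described next.

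In all, 2655 of the 14150 genes tested differed between KO and WT at an adjusted p under 0.05 (18.8%). Of these, 1296 were higher in KO (9.16%) and 1359 lower (9.6%), and the libraries of the groups did not overlap for 35.2% of all genes tested. The calls were not spread evenly along the genome. In runs of neighbouring genes, most members moved the same way. Such runs were located as blocks, windows of 51 consecutive tested genes whose median log2 fold change lay beyond 0.4 in either direction, with overlapping windows of one sign merged. There were 13 blocks on 9 chromosomes, holding 1233 tested genes. In them 556 genes were called (45.1%), which is 20.9% of all calls, against 2099 of 12917 genes outside (16.2%). Because the blocks were found from this same contrast, the share inside them is a description. The calls outside were 1045 higher (8.09%) and 1054 lower (8.16%). Of the called genes outside, 49.8% were higher, but 38.8% were with scaling by library totals alone. The count outside was 1394 without WT replicate 1 and 1350 without KO replicate 2. The count over all genes was 1764 without KO replicate 2.

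**Figure D1:**
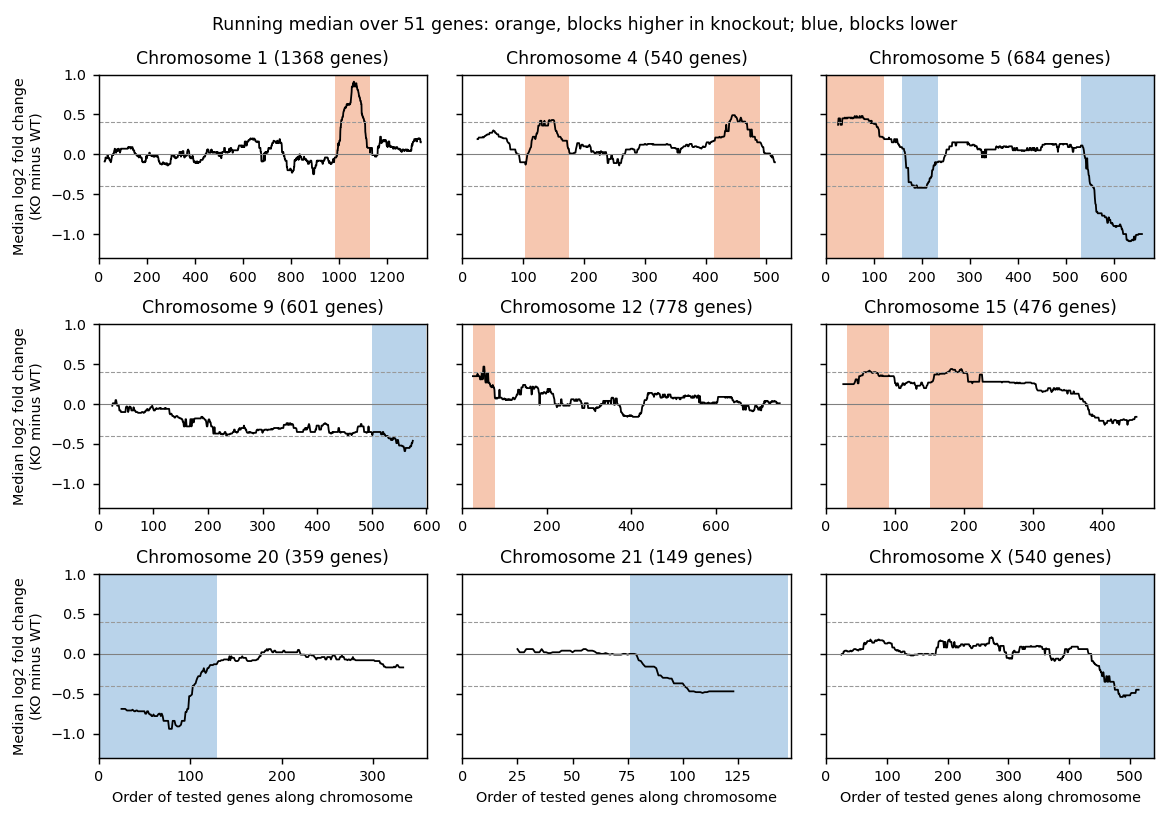
Running median of the log2 fold change (KO minus WT, y axis) over 51 consecutive tested genes, in the order of the genes along the 9 chromosomes that hold a block (x axis). Dashed lines mark the threshold of 0.4 and shading marks the 13 blocks. The end of chromosome 5 and the start of chromosome 20 lie lowest, a stretch of chromosome 1 lies highest, and most of chromosome 9 lies below 0.

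Among the 7 blocks that were higher in KO, the strongest shift was on the long arm of chromosome 1 (160894980 to 201884291), where 147 tested genes had a median log2 fold change of 0.51 and 65 were called higher against 4 lower. The start of chromosome 5 (218241 to 44808777) held 120 genes with a median of 0.44, of which 46 were higher and 3 lower. Chromosome 4 held blocks at 17800655 to 48861817 (74 genes, median 0.24) and 139698144 to 169612627 (77 genes, median 0.41). The remaining 3 lay on chromosome 12 (4269771 to 8216151, 53 genes, median 0.47) and on chromosome 15 (30487963 to 40956512, 62 genes, median 0.38, and 47184101 to 64093857, 78 genes, median 0.40).

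The 6 blocks that were lower in KO held 622 genes. The end of chromosome 5 (149494314 to 181272307) moved farthest, with a median of -0.87 over 153 genes, 54.8% of the WT level, and 98 genes called lower against 4 higher. The start of chromosome 20 (270863 to 31801805), with 130 genes, had a median of -0.66, and 68 were lower and 3 higher. Lower medians were also found at 62347284 to 78480739 on chromosome 5 (-0.35, 76 genes), at the end of chromosome 9 (131523801 to 138177433, -0.42, 100 genes), at the end of chromosome 21 (37223420 to 46665124, -0.47, 73 genes) and at the end of chromosome X (147911919 to 156025710, -0.40, 90 genes).

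The shift was present in each KO library. The median over the chromosome 5 end, relative to the mean of WT, was -0.82, -0.88 and -0.81 in the KO libraries and 0.02, 0.00 and -0.02 in the WT libraries. Over the chromosome 20 block it was -0.59, -0.66 and -0.61 in KO, and over the chromosome 1 block 0.48, 0.53 and 0.63. The smallest separation was in the first block of chromosome 4, with 0.14, 0.27 and 0.44 in KO and -0.04, -0.06 and 0.10 in WT. Fitted over the 3 libraries labelled OE against the same WT libraries, block medians lay between -0.10 and 0.05, except 0.22 at the end of chromosome X, and single OE libraries lay between -0.28 and 0.29.

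**Figure D2:**
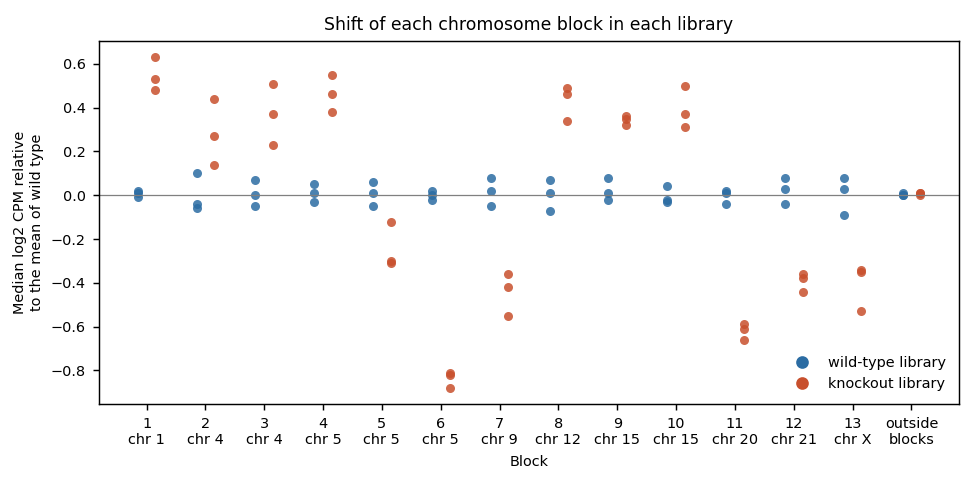
Median log2 CPM of the genes of each block relative to the mean of the WT libraries (y axis), 1 point per library, with blocks numbered along the genome (x axis) and the genes outside all blocks at the right. The KO libraries lie on one side of the WT libraries in each of the 13 blocks, and both groups lie within 0.01 of 0 outside them.

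Abrupt steps were found in or near several blocks, not always at their edges. On chromosome 20 the median of the 15 tested genes up to NAPB was -0.96, and that of the 15 from CST3 onward was 0.02. On chromosome 5 it fell from 0.09 over the 15 genes up to G3BP1 to -0.77 over the 15 from FAM114A2. On chromosome 1 it rose from -0.10 to 0.67 just after CFAP126 and dropped from 0.75 to 0.08 between ARPC5 and RGL1. These steps were picked as the largest in or near each block and carry no test.

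Chromosome 9 was lower beyond its block. Of its 601 tested genes 462 (76.9%) had a negative log2 fold change, 152 were called lower and 20 higher, and the median was -0.26. It was -0.28, -0.25 and -0.27 in the 3 KO libraries. The 501 genes outside the block had a median of -0.23, with 109 called lower and 19 higher, and the lowest window outside any block lay on this chromosome (85546539 to 95876049, -0.396). Without chromosome 9, 1026 genes outside the blocks were higher and 945 lower, a count added after the data were seen.

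A minority of genes in the blocks moved by more than their neighbourhood or against it. Of the 556 called genes in blocks, 108 (19.4%) lay 1 or more from their block's median on the log2 scale, and 47 (8.45%) were called against its direction. KCNT2, a sodium-activated potassium channel in the chromosome 1 block, had no count in WT and 5.72, 11.3 and 15.9 CPM in KO. It was at least 31.4-fold higher, taking 3 counts per WT library as the floor. TDO2, which starts the breakdown of tryptophan, had no count in WT and 6.31, 7.24 and 6.42 CPM in KO, at least 19-fold higher (chromosome 4 block). C7, a component of the complement attack complex in the block at the start of chromosome 5, was close to silent in WT, at 0.358 ± 0.367 CPM (SD, n = 3). It reached 17.8 ± 0.842 CPM in KO. Its fitted log2 fold change was 5.61 ± 0.43, or 6.58 without WT replicate 2.

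CYP19A1, also among the largest rises in a block, encodes aromatase, the enzyme that converts androgens to estrogens. It was at 18.9, 21.6 and 23 CPM in WT and at 248.1, 238.3 and 286.5 CPM in KO. Its log2 fold change was 3.60 ± 0.14 (adjusted p = 8.65e-11), whereas its block on chromosome 15 had a median of 0.40. In the chromosome 1 block SOAT1, which esterifies cholesterol for storage, went from 322.1, 337.8 and 354.3 CPM to 1068.5, 1181.3 and 1333.5 CPM (1.82 ± 0.11). PRDX6, a peroxiredoxin, and ATP1B1, a subunit of the sodium pump, rose in the same block by 1.07 ± 0.13 and 1.64 ± 0.12 on the log2 scale.

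In the lower blocks, MARVELD2, a protein of tricellular junctions, was at 8.25, 9.29 and 7.94 CPM in WT and had no count in KO, at least 25.6-fold lower. NOTCH1 fell from 14.5, 8.31 and 15.9 CPM to 0.467, 1.3 and 0.749 CPM (log2 fold change -3.91 ± 0.36), ABCG1, a cholesterol exporter, by 3.29 ± 0.45 and EBF4 by 3.03 ± 0.33. Without KO replicate 2 ABCG1 was at -4.23. CANX, an abundant chaperone of the endoplasmic reticulum, and NPM1, the nucleolar protein nucleophosmin, followed the end of chromosome 5. CANX went from 1527.0 ± 54.1 to 823.5 ± 56.5 CPM and NPM1 from 952.8 ± 82.3 to 469.6 ± 14.3 CPM. SERF1B, which has a close copy on chromosome 5, passed the test with WT levels of 2.15, 26.7 and 2.07 CPM, and its adjusted p was 0.217 without WT replicate 2 (log2 fold change -1.20).

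Some genes called against their block sat near each other. CERT1 and POLK on chromosome 5, whose ends overlap, were higher by 0.48 and 0.59 on the log2 scale in a block with a median of -0.35. Both were named after their values were seen. They lie beyond a step in that block after ARHGEF28, where the median of 15 genes went from -0.51 to -0.03. At the tip of chromosome X, TMLHE, SPRY3 and VAMP7 were higher by 0.92, 1.96 and 0.87 on the log2 scale, beside a block median of -0.40. On chromosome 20, APMAP and ACSS1 were higher by 0.50 and 1.55, beyond the step at NAPB. GPX3, an extracellular glutathione peroxidase, rose from 1.77 ± 0.79 to 13.9 ± 0.877 CPM in the chromosome 5 end block. It lies before the step at G3BP1, where the median of 15 genes was 0.09.

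Outside the blocks, several genes changed between near silence and clear expression. CILP2, a matrix protein of cartilage (chromosome 19, 19538248 to 19546659), was at 0.452, 0 and 0.46 CPM in WT and 72.2, 71.1 and 57.2 CPM in KO, a difference of 7.69 ± 0.33 on the log2 scale (adjusted p = 1.58e-10). EGLN3, a prolyl hydroxylase that marks hypoxia-inducible factors for destruction, went from 0.678, 0.245 and 0.23 CPM to 33.6, 37.6 and 25.7 CPM (6.33 ± 0.50, or 7.01 without WT replicate 1). GPR183, a receptor for oxysterols, was already expressed in WT at 8.14, 10.4 and 6.56 CPM and reached 176.2, 185.9 and 205.1 CPM (4.50 ± 0.19). In each of these genes all KO libraries lay above all WT libraries, which the rule for choosing them required.

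Other rises of this size were those of NAXD, which repairs damaged nicotinamide cofactors (4.92 ± 0.32), CALCRL, the receptor of the calcitonin gene-related peptide and adrenomedullin (4.30 ± 0.35), LOXL3, a lysyl oxidase that crosslinks collagen (4.26 ± 0.23), and the secreted phospholipase PLA2G3 (4.67 ± 0.56). PCDH17, a protocadherin, rose by 5.06 ± 0.61 and by 6.32 without WT replicate 2. UTS2, the vasoactive peptide urotensin, and DMTN, an actin-bundling protein, had 2 counts each over the WT libraries, both in WT replicate 2, without which the fitted log2 fold changes went from 6.62 to 9.34 for UTS2 and from 6.44 to 9.16 for DMTN. The ratios were 116 for UTS2 (95% counting interval 31.9 to 967) and 102 for DMTN (27.8 to 846). These intervals cover counting error only, and the floors carry no interval.

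RAB31, a small GTPase of endosomal traffic (chromosome 18, 9708275 to 9862551), was at 30.2, 24.5 and 17.4 CPM in WT and had no count in any KO library, at least 72.3-fold lower. SH3TC1 also had no KO count and was at least 23.5-fold lower. CYP27A1, the mitochondrial enzyme that hydroxylates the cholesterol side chain, had 685 counts over the WT libraries and 2 over the KO libraries, both in KO replicate 1, a ratio of 362 (99.8 to 2990). TPD52 and CD109 had ratios of 177 (31.4 to 7050) and 140 (38.4 to 1160). Fitted log2 fold changes went from -8.25 to -10.89 for CYP27A1 and from -7.01 to -8.87 for TPD52 without KO replicate 1, and from -6.88 to -9.51 for CD109 without KO replicate 3. DSG2, the desmosomal cadherin desmoglein, fell by 6.13 ± 0.44 on the log2 scale. BRSK2, a kinase of neuronal polarity, fell by 5.63 ± 0.51, CADPS, which primes dense-core vesicles, by 5.40 ± 0.36, and VCX by 5.11 ± 0.30. The thyrotropin receptor TSHR fell by 5.24 ± 0.65, and by 8.74 without KO replicate 3, which held its only KO counts.

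**Figure D3:**
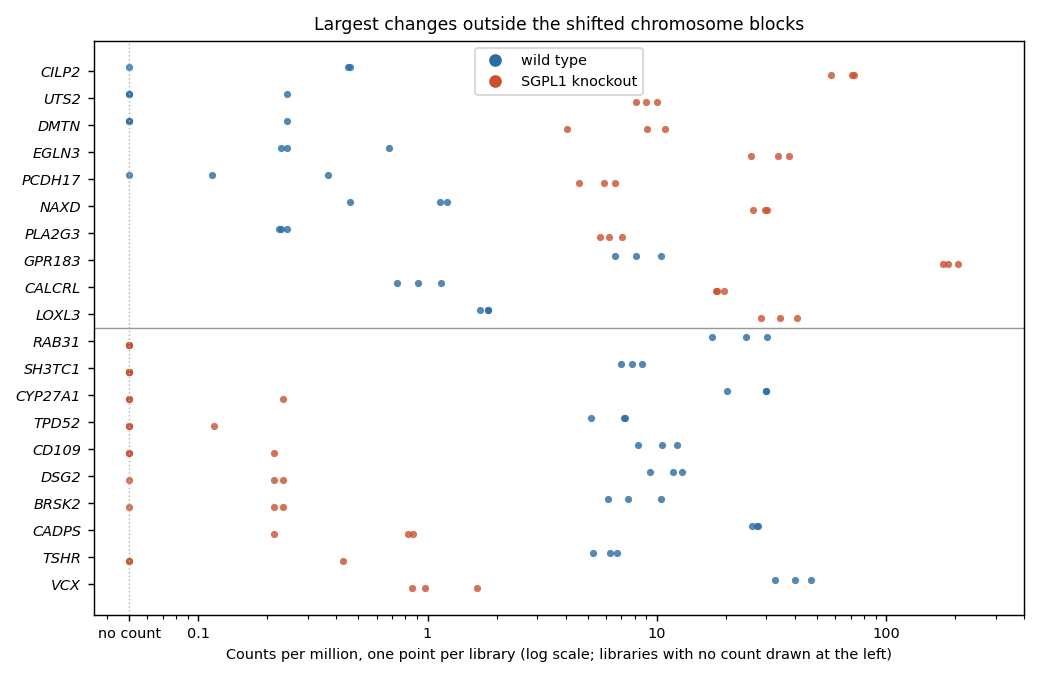
CPM (x axis, log scale) in each of the 3 WT and 3 KO libraries for the 10 genes with the largest rise (upper) and the 10 with the largest fall (lower) outside the blocks, with libraries without a count drawn at the left edge. The groups do not overlap for any of the 20 genes, which the rule for choosing them required, and RAB31 and SH3TC1 have no count in KO.

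Among the most abundant genes called outside the blocks, EEF1A1, the translation elongation factor, was lower in KO, at 8675.9 ± 1059.8 CPM in WT and 6283.0 ± 451.7 CPM in KO. DLK1, a Notch-like surface protein of adrenal progenitors, had 2823.7, 2492.6 and 2469.9 CPM in WT and 6303.3, 6157.1 and 4927.1 CPM in KO (1.16 ± 0.11). The mitochondrial chaperone HSPD1 rose by 0.72 ± 0.11, the cytosolic chaperone HSPA8 by 0.53 ± 0.12, the transferrin receptor TFRC by 0.52 ± 0.12 and the imprinted gene PEG10 by 0.75 ± 0.17. In OE against WT, HSPA8 was at 0.95 on the log2 scale, HSPD1 at 0.49, TFRC at -0.44 and PEG10 at -0.17. The histone variant H2AZ2 was at -0.28 ± 0.09 and passed the test, but it did not without any 1 of the WT replicates 1 and 3, the KO replicates or OE replicate 3 (adjusted p 0.062 to 0.171).

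The genes of cholesterol biosynthesis were mostly higher in KO. Of the 23 tested, 15 rose and 3 fell, with a median log2 fold change of 0.65 against -0.01 over all genes tested. Outside the blocks the count was 11 up and 2 down of 16 (81.2%, beside 16.2% of all genes there), with a median of 0.58. Over the whole list, 14 to 15 rose and 2 to 3 fell when any 1 library was left out. HMGCS1, a synthase early in the pathway, rose by 0.90 ± 0.13, MSMO1 and HSD17B7, which demethylate and reduce sterol intermediates, by 0.83 ± 0.11 and 1.18 ± 0.14. These 3 genes lie in blocks that were higher in KO.

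Outside the blocks DHCR7, which catalyses the last reduction to cholesterol, went from 323.8, 299.3 and 312.5 CPM to 576.8, 543.9 and 502.3 CPM (0.79 ± 0.10). IDI1, the isopentenyl isomerase, rose by 0.82 ± 0.11, and TM7SF2, a sterol reductase, rose from 1.08 ± 0.254 to 9.57 ± 1.56 CPM. SQLE, the squalene epoxidase, went the other way. It was at 97.5, 95.1 and 113.9 CPM in WT and at 38.3, 39.7 and 36.8 CPM in KO, which is -1.42 ± 0.14 on the log2 scale (adjusted p = 3.65e-06). The other members that fell were PMVK, a kinase of the mevalonate route, at -0.70 ± 0.20, and FAXDC2, in the chromosome 5 end block, at -1.67 ± 0.32. Both were chosen after their values were seen.

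The regulators of this pathway divided. SREBP2, encoded by SREBF2, drives the genes of cholesterol synthesis and uptake when membrane cholesterol is low, whereas the products of SREBF1 drive fatty acid synthesis. SREBF1 was at 80.1, 59.5 and 70.9 CPM in WT and 24.3, 22.9 and 13.6 CPM in KO (-1.79 ± 0.19, adjusted p = 6.03e-06). It was also lower in the OE libraries than in WT (-1.41 on the log2 scale). SREBF2 was at 183.3, 145.3 and 188.9 CPM in WT and at 260.0, 264.4 and 257.4 CPM in KO (0.60 ± 0.12), and was named after its value was seen. Of the 13 members of the list on SREBP control, 5 rose and 1 fell, with no member in a block. That is 46.2%, beside 16.2% of all genes outside the blocks. INSIG1, which retains the SREBP complex in the endoplasmic reticulum, rose by 0.59 ± 0.10 and the sterol carrier STARD4 by 0.81 ± 0.15.

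**Figure D4:**
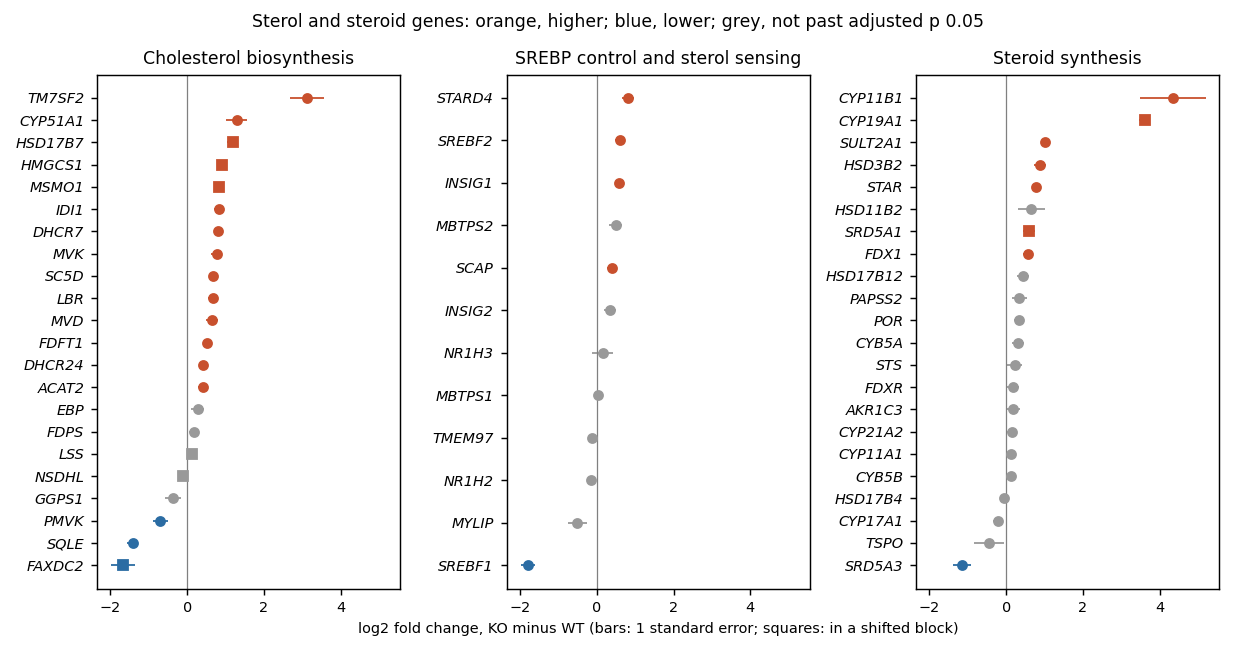
Log2 fold change (x axis, KO minus WT, bars 1 SE) of tested members of 3 gene lists, with squares for genes in a shifted block. Most cholesterol genes lie to the right of 0, with SQLE at -1.42 and SREBF1 at -1.79 to the left, and the steroid list has 7 genes called higher and 1 lower of 22.

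The promoters of genes in these lists are shown because members moved together. They are RefSeq sequences (GRCh38.p14) of the 250 bases before the annotated start, 5′ to 3′ in the direction of transcription, with capitals for TCACCCC, the core of a sterol regulatory element, and for CCAAT, the box bound by NF-Y, or its reverse complement ATTGG.
MVK: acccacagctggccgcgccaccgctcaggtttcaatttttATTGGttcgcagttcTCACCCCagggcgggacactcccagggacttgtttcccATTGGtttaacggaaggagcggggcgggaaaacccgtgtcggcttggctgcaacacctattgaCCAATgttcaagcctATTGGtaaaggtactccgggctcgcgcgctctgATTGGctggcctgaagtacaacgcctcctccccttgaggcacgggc
SREBF2: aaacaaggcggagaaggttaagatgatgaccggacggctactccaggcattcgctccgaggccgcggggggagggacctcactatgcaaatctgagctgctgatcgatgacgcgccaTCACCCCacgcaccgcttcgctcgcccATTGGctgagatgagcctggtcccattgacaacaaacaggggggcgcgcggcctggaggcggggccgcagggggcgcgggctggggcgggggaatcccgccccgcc
HMGCS1: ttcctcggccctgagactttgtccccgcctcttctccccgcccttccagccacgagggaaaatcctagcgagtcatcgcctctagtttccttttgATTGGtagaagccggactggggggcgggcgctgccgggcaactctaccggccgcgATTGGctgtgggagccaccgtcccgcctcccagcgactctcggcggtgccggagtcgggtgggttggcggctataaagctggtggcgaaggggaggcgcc
MSMO1: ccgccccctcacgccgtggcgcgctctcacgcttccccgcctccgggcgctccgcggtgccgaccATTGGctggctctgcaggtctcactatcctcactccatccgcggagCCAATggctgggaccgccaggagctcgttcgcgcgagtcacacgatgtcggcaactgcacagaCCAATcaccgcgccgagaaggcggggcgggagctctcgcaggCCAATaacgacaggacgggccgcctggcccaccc

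The MVK window lies at chr12:109573544-109573793 on the plus strand, SREBF2 at chr22:41832855-41833104 (plus), HMGCS1 at chr5:43313413-43313662 (minus) and MSMO1 at chr4:165327419-165327668 (plus). On either strand of such windows, the sterol element core was found in 4.55% and the NF-Y box in 33% of 27305 RefSeq promoters. A promoter was matched for 18 of the 23 cholesterol genes. The NF-Y box was in 12 of them (66.7%), among them 8 of the 11 matched genes that rose, and the sterol element core was in 1, MVK. Of 12 matched genes of the SREBP list, SREBF2 alone held that core. The NF-Y box was in 33.5% of the promoters of all genes higher in KO and in 31.5% of those lower. A match is a description of the letters only, and MVK itself rose from 66.7 ± 5.12 to 114.0 ± 9.57 CPM.

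Of 17 tested genes that take up, store and export cholesterol 6 rose and 3 fell, and outside the blocks 5 of 15 rose and 2 fell (46.7%, beside 16.2% of all genes there). SCARB1, the receptor that takes cholesteryl esters from high-density lipoprotein, was at 1215.8, 990.4 and 1051.6 CPM in WT and 1928.8, 1776.7 and 1682.6 CPM in KO (0.73 ± 0.11). It was also higher in the OE libraries than in WT, by 0.83 on the log2 scale. GRAMD1B, which moves cholesterol from the plasma membrane to the endoplasmic reticulum, rose by 1.45 ± 0.13, and APOE, the lipoprotein component, rose from 1.48 ± 0.732 to 12.4 ± 3.28 CPM. SOAT1, described above, was the most abundant called gene of the chromosome 1 block. CYP27A1 and ABCG1, whose products remove cholesterol by oxidation and export, were 2 of the 3 members that fell.

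In the steroid list 7 of 22 tested genes rose and 1 fell (36.4%, beside 18.8% of all genes tested), with a median of 0.32. The 20 outside the blocks had a median of 0.26, and 5 rose and 1 fell. STAR, which carries cholesterol to the inner mitochondrial membrane, was at 314.2, 339.3 and 300.5 CPM in WT and 602.8, 537.2 and 489.5 CPM in KO (0.77 ± 0.11, adjusted p = 8e-05). SULT2A1, which sulfates adrenal androgens, rose by 1.01 ± 0.11, HSD3B2, which makes progestogens from their precursors, by 0.88 ± 0.15, and FDX1, the electron donor of mitochondrial cytochromes P450, by 0.56 ± 0.13. In OE against WT, HSD3B2 was at 2.90 on the log2 scale, FDX1 at 0.40 and SULT2A1 at -0.19. SRD5A3, a reductase of polyprenol and steroid substrates, fell by 1.15 ± 0.23. CYP11B1, the cortisol-forming hydroxylase, had 2 counts over the WT libraries, in WT replicate 3, and was at 1.75, 2.16 and 1.6 CPM in KO. The counting command in the file headers sets no option for multiply mapped reads, which are then left out by default, so CYP11B1, CYP21A2 and HSD3B2, which have close copies, are uncertain in level.

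The central cytochromes of the pathway did not pass the test, and they were named after their values were seen. CYP11A1, which starts steroid synthesis, was at 446.3 ± 59.6 CPM in WT and 488.5 ± 42.5 CPM in KO (0.13 ± 0.13, adjusted p = 0.545). CYP17A1 was at -0.21 ± 0.13 (adjusted p = 0.285) and CYP21A2 at 0.16 ± 0.13 (adjusted p = 0.443). NR5A1, the nuclear receptor that specifies the adrenal cortex, was at 768.0 ± 61 CPM in WT and 909.2 ± 91.4 CPM in KO (adjusted p = 0.16).

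Among adrenocortical regulators and markers, 7 of 24 rose and 3 fell, outside the blocks 5 and 3 of 22. The shares called were 41.7%, beside 18.8% of all genes tested, and 36.4% outside, beside 16.2% there. NR0B1, a corepressor of NR5A1 also known as DAX1, was at 3.28, 4.89 and 6.1 CPM in WT and 18.2, 13.5 and 14.2 CPM in KO (1.68 ± 0.24). SHH, the hedgehog ligand of adrenal progenitors, rose by 1.29 ± 0.20, and the transferrin-like surface protein MELTF fell by 1.67 ± 0.25. In the list of the IGF axis and imprinted growth genes 6 of 29 rose and 4 fell (34.5%, beside 18.8% of all genes tested). With DLK1, the regulators PLAGL1 (0.93 ± 0.12) and IGF2BP1 (1.23 ± 0.16) rose, and IGFBP3, which binds insulin-like growth factors, went from 26.9, 27.9 and 23.9 CPM to 2.34, 4.11 and 6.2 CPM (-2.62 ± 0.26). Without WT replicate 3, 11 genes of this list rose.

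Of 11 tested genes of S1P turnover and signalling other than SGPL1, all outside the blocks, 1 passed the test (9.09%, beside 16.2% of all genes there). This was ALDH3A2, which oxidises the aldehyde that the lyase releases, at 299.1, 311.8 and 296.2 CPM in WT and 351.0, 379.2 and 399.7 CPM in KO (0.32 ± 0.10, adjusted p = 0.037). It no longer passed without WT replicate 1 or 3, KO replicate 2 or 3, or OE replicate 3 (adjusted p 0.0551 to 0.132). Without OE replicate 2 the genes of this list that rose numbered 2, and without KO replicate 1 another fell. S1PR3, the receptor with the highest level, was at 392.6 ± 52.3 CPM in WT and 502.1 ± 45 CPM in KO (0.35 ± 0.15, adjusted p = 0.104). The sphingosine kinase SPHK2 was at -0.43 ± 0.17 (adjusted p = 0.0881). S1PR3 and SPHK2 were named after their values were seen.

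In ceramide and sphingolipid metabolism 5 of 37 tested genes rose and 4 fell (24.3%), with a median of 0.07. Outside the blocks 20% were called, near the 16.2% of all genes there. UGT8, which makes galactosylceramide, rose from 0.158 ± 0.137 to 2.84 ± 0.954 CPM. SPTLC2, a subunit of serine palmitoyltransferase at the entry of the pathway, was at 37, 37.7 and 40.9 CPM in WT and 51.4, 51.7 and 57.1 CPM in KO (0.47 ± 0.13), and SPTLC3, another subunit, in the chromosome 20 block, was at -0.63 ± 0.18. CERT1, which carries ceramide to the Golgi, was at 0.48 ± 0.13, the ceramide synthase CERS6 at 0.76 ± 0.21, the galactosylceramidase GALC at -0.49 ± 0.14, the ganglioside synthase B4GALNT1 at -0.54 ± 0.16 and ORMDL3, an inhibitor of serine palmitoyltransferase, at -0.44 ± 0.13. Each of these genes except UGT8 lost its call without at least 1 library. Those that rose numbered 1 without WT replicate 1 or KO replicate 3, and 2 without WT replicate 2 or KO replicate 2. Those that fell numbered 0 without KO replicate 1 or 2, and 2 without WT replicate 1, WT replicate 3 or KO replicate 3.

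Synthesis of phosphatidylethanolamine, which uses the phosphoethanolamine that the lyase makes, had 5 of 10 tested genes higher, none lower and none in a block. That is 50%, beside 16.2% of all genes outside the blocks. ETNK1, the ethanolamine kinase, was at 160.2, 189.6 and 174.6 CPM in WT and 234.1, 239.0 and 279.0 CPM in KO (0.52 ± 0.12). PCYT2 and SELENOI, the later steps of the same route, rose by 0.58 ± 0.14 and 0.64 ± 0.14. PISD, the mitochondrial decarboxylase, rose by 0.51 ± 0.14, but had adjusted p values of 0.055 to 0.0613 without WT replicate 3 or the KO replicates 1 or 2. The count was 3 without WT replicate 3 or KO replicate 2.

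Many glycolytic genes rose in KO. Of 25 tested genes of glycolysis and glucose uptake 12 rose and 1 fell, with a median of 0.36, and outside the blocks 9 of 20 rose and none fell (median 0.30). The shares called were 52%, beside 18.8% of all genes tested, and 45% outside, beside 16.2% there. HK2, the inducible hexokinase, was at 9.72, 8.07 and 8.17 CPM in WT and 23.6, 27.4 and 27.5 CPM in KO (1.59 ± 0.19, adjusted p = 1.51e-05). PKM, the pyruvate kinase gene, went from 4579.3, 5085.9 and 3823.6 CPM to 7557.1, 7157.9 and 6168.0 CPM (0.63 ± 0.12), LDHA rose by 0.62 ± 0.11 and the aldolase ALDOC by 0.87 ± 0.15. In OE against WT, LDHA was at 0.62 on the log2 scale, PKM at 0.40, HK2 at -0.21 and ALDOC at -0.20. GAPDH (0.49 ± 0.10), TPI1 (0.57 ± 0.13) and the glucose transporter SLC2A3 (0.73 ± 0.14) rose within the chromosome 12 block, whose median was 0.47. PFKL, a phosphofructokinase in the chromosome 21 block, fell by 0.71 ± 0.14. With 1 library left out, 8 to 12 genes rose, and 2 fell without WT replicate 3 or KO replicate 2.

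**Figure D5:**
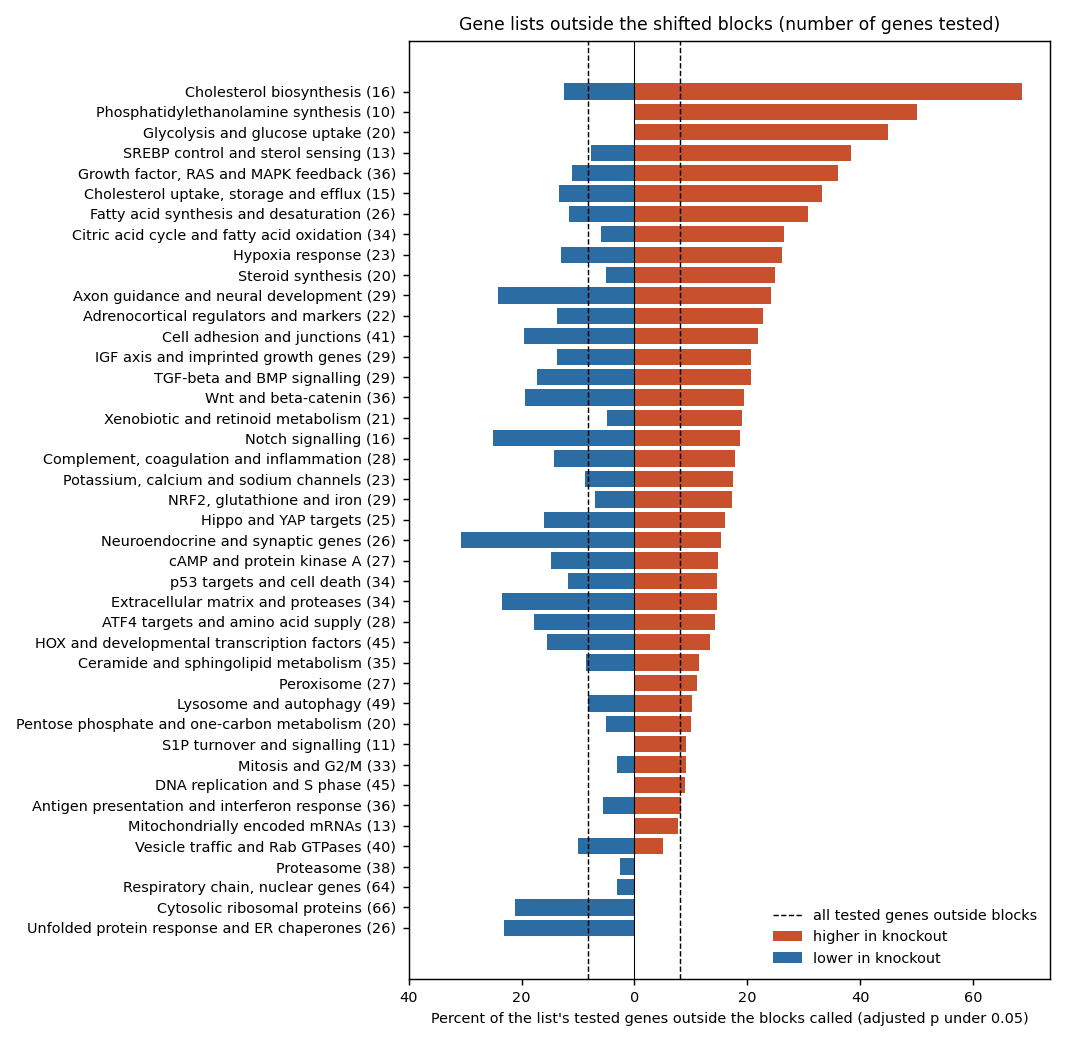
Percent of the tested genes outside the blocks that were called higher (right) or lower (left) in KO for each list with at least 10 such genes (number in brackets). Dashed lines give the share over all 12917 tested genes outside the blocks, 8.09% higher and 8.16% lower. Cholesterol biosynthesis (11 of 16) has the highest share of genes called higher, and neuroendocrine and synaptic genes (8 of 26) the highest share called lower.

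Mitochondrial and lipid metabolism moved in both directions. Of 39 genes of the citric acid cycle and fatty acid oxidation 33.3% were called, beside 18.8% of all genes tested. Of them 9 rose and 4 fell. Without WT replicate 1 these numbers were 5 and 2, and 2 fell without KO replicate 1. IDH3A, an isocitrate dehydrogenase subunit, rose by 1.22 ± 0.16, SLC25A20, the carnitine carrier, by 0.87 ± 0.15, and the pyruvate dehydrogenase kinases PDK1 and PDK3 by 0.80 ± 0.15 and 0.71 ± 0.13. In fatty acid synthesis and desaturation 8 of 27 rose (4 without WT replicate 1 or KO replicate 3) and 4 fell. With all libraries 44.4% were called, beside 18.8% of all genes tested. FADS2, a desaturase, rose from 458.0 ± 38.2 to 720.9 ± 64.1 CPM, and FADS3 by 1.01 ± 0.18. ELOVL2, an elongase, was at 1.36, 3.42 and 4.37 CPM in WT and had 2 counts in KO, both in KO replicate 3, and AGPAT2 fell by 1.51 ± 0.19 in the chromosome 9 block. The peroxisomal genes AGPS, which starts ether lipid synthesis, and CAT, the catalase, rose by 0.78 ± 0.13 and 0.78 ± 0.14, among 3 of 30 that rose and 1 that fell (none fell without WT replicate 1 or 3, any 1 KO replicate or OE replicate 3). In this list 13.3% of genes were called, below the 18.8% of all genes tested.

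In the hypoxia list 7 of 24 genes rose and 3 fell (4 rose without KO replicate 2, and 1 fell without any 1 WT or KO library). With all libraries 41.7% were called, beside 18.8% of all genes tested. With EGLN3 and PDK1, the oxygen-sensing hydroxylase EGLN1 rose by 1.04 ± 0.21. CA12, a carbonic anhydrase in the second chromosome 15 block, rose from 4.5 ± 2.58 to 12.9 ± 2.35 CPM. Of 33 genes of the NRF2, glutathione and iron list 8 rose and 2 fell (1 without WT replicate 1 or 2 or KO replicate 2 or 3, and 4 without OE replicate 2). Of the 29 outside the blocks 5 rose and 2 fell (24.1%, beside 16.2% of all genes there), with a median of 0.05. SLC40A1, the iron exporter ferroportin, was at 7.35, 13.6 and 9.43 CPM in WT and at 26.4, 30.5 and 30.2 CPM in KO (1.52 ± 0.23), whereas PRDX6, MGST3 (0.72 ± 0.13) and GPX3 lie in blocks.

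Growth factor signalling and its feedback genes rose more often than they fell, with 15 higher and 5 lower of 39 tested (13 and 4 of 36 outside the blocks, median 0.27). Of those outside, 47.2% were called, beside 16.2% of all genes there. ETV4, a transcription factor induced by ERK signalling, was at 3.73, 6.6 and 5.87 CPM in WT and 28.2, 24.6 and 23.9 CPM in KO (2.24 ± 0.21, adjusted p = 1.56e-06). ETV5, its relative, rose by 1.15 ± 0.13 and DUSP5, a phosphatase that inactivates ERK in the nucleus, by 1.48 ± 0.18. FOSL2, a subunit of the AP-1 factor, fell by 1.25 ± 0.16. The number that fell was 2 without WT replicate 2 and 3 without WT replicate 1 or KO replicate 3.

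Other signalling lists held genes of both directions. In the Wnt list 7 of 36 rose and 7 fell, and 4 rose without WT replicate 1 and 3 without KO replicate 3. No member lies in a block, and 38.9% were called, beside 16.2% of all genes outside the blocks. The receptor ROR1 (1.45 ± 0.20) and the inhibitor SFRP1 (1.52 ± 0.22) rose, and the inhibitors DKK3 (-0.99 ± 0.14) and APCDD1 (-0.69 ± 0.10) fell. APCDD1 went from 612.9, 559.8 and 573.8 CPM to 379.5, 365.2 and 337.0 CPM. In OE against WT, APCDD1 was at -0.73 on the log2 scale, DKK3 at -0.94, SFRP1 at 1.21 and ROR1 at -0.60. In the TGF-beta and BMP list 6 of 32 rose and 6 fell (37.5%, beside 18.8% of all genes tested). Those that rose numbered 3 without WT replicate 1, WT replicate 2 or KO replicate 2, and 2 without KO replicate 3. FST, the activin antagonist follistatin, was at 41.3, 44.6 and 41.3 CPM in WT and 8.76, 10.6 and 13.2 CPM in KO (-1.96 ± 0.18), TGFB2 fell by 1.61 ± 0.20 and FSTL1 by 0.63 ± 0.11. SMAD1, a BMP effector, fell by 1.09 ± 0.17 within a chromosome 4 block that was higher. In the Notch list 4 of 24 rose and 7 fell (45.8%), with 8 members in blocks. Of the 16 outside the blocks 3 rose and 4 fell (43.8%, beside 16.2% of all genes there). Their median was 0.07, against -0.14 over the whole list. Among these 16, HES6 rose by 0.99 ± 0.18 and HEY2 fell by 0.84 ± 0.16. Of 25 Hippo and YAP genes 4 rose and 4 fell (32%, beside 18.8% of all genes tested). WWTR1, which encodes TAZ, rose by 0.76 ± 0.14 and SAV1 by 0.56 ± 0.12. Without WT replicate 1 each of these 2 counts was 2, as was that of genes that rose without KO replicate 2 and of genes that fell without KO replicate 3.

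Extracellular matrix genes divided, with 6 of 40 higher and 9 lower (37.5%, beside 18.8% of all genes tested). The metalloproteinases of the list moved in both directions. MMP14, a membrane metalloproteinase, was at 95.1, 71.2 and 78 CPM in WT and 27.3, 23.4 and 17.6 CPM in KO (-1.84 ± 0.17), and MMP2, which it activates, fell by 3.56 ± 0.44. MMP15, named after its value was seen, rose by 0.63 ± 0.18. VCAN, the proteoglycan versican, went from 136.8, 84.9 and 181.2 CPM to 27, 31.2 and 38 CPM (-2.07 ± 0.24), and fibronectin, FN1, fell by 2.34 ± 0.41. The collagens COL5A2 and COL3A1 fell by 3.80 ± 0.52 and 1.62 ± 0.29, and COL6A2 by 1.08 ± 0.23 in the chromosome 21 block. In the OE libraries against WT, VCAN, FN1, COL5A2 and COL3A1 were at -1.97, -3.07, -2.74 and -1.54 on the log2 scale. MMP2, MMP14 and COL6A2 were at -1.79, -0.83 and -0.81 there, and CILP2 at -0.06. The falls of these genes were thus not particular to KO. With CILP2 the number that rose was 2 without WT replicate 2 or KO replicate 2 and 3 without KO replicate 3. Fibroblast markers as a list summed to 47.9 to 58.1 CPM in WT and 50.8 to 58 CPM in KO, with LUM at 0 and COL3A1 as the 1 member of 3 tested that fell.

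Of 44 cell adhesion and junction genes 9 rose and 9 fell, and 8 to 12 rose and 8 to 11 fell with any 1 library left out. With all libraries 40.9% were called, beside 18.8% of all genes tested. CDH11, a mesenchymal cadherin, was at 60.2, 52.5 and 64.4 CPM in WT and 7.94, 8 and 12.7 CPM in KO (-2.62 ± 0.23, adjusted p = 8.57e-07). With DSG2 and MARVELD2, EPCAM fell by 1.08 ± 0.16 and the integrin ITGB5 by 0.73 ± 0.13. ITGA9, another integrin subunit, rose from 253.3, 208.7 and 296.3 CPM to 585.0, 628.1 and 709.5 CPM (1.34 ± 0.14), and ITGA2 rose by 1.53 ± 0.26. Epithelial markers summed to 27.6 to 31.5 CPM in WT and 14.8 to 18.3 CPM in KO, led by EPCAM, with KRT5 and KRT14 at 0.

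Neuroendocrine and synaptic genes, which adrenocortical carcinoma cells can express, fell more often than they rose. Of 32 tested 11 fell and 4 rose, with a median of -0.44, and outside the blocks 8 of 26 fell and 4 rose (median -0.38). Of those outside, 46.2% were called, beside 16.2% of all genes there. DPYSL3, a protein of growing axons, was at 56.5, 63.1 and 58.5 CPM in WT and 3.5, 1.95 and 1.28 CPM in KO (-4.73 ± 0.25, adjusted p = 2.2e-09). NEFL, a neurofilament subunit, fell from 103.9, 86.7 and 98 CPM to 42.6, 48.8 and 41.7 CPM (-1.12 ± 0.14). In OE against WT, NEFL was at -1.16 and DPYSL3 at -0.56 on the log2 scale. The medulla marker list beside it had 1 of 8 genes tested, CHGA, and summed to 2.76 to 4.75 CPM in WT and 2.27 to 3.42 CPM in KO. In the axon guidance list 8 of 32 rose and 8 fell (50%, beside 18.8% of all genes tested). SEMA6B, a semaphorin, rose by 1.26 ± 0.16 and the ephrin EFNA3 fell by 1.05 ± 0.19. Those that rose numbered 5 without WT replicate 1 or KO replicate 3, 4 without WT replicate 2 and 3 without KO replicate 2. Those that fell numbered 3 without WT replicate 1, 5 without KO replicate 2 and 4 without KO replicate 3.

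Among HOX genes and developmental transcription factors 7 of 49 rose and 8 fell (30.6%, beside 18.8% of all genes tested). HOXD8 and HOXA10 rose by 1.45 ± 0.20 and 0.93 ± 0.14. PITX1 fell by 1.09 ± 0.15, and KLF4, on chromosome 9, by 3.00 ± 0.45 (3.68 without KO replicate 3). The number that rose was 3 without WT replicate 1 or 2 and 4 without KO replicate 1 or 2, and the number that fell was 5 without WT replicate 1 or KO replicate 2. Of the remaining lists, 4 of 27 genes of cyclic AMP and protein kinase A rose and 4 fell, 2 of 21 of the pentose phosphate pathway and one-carbon metabolism rose and 2 fell, and 4 of 21 of xenobiotic and retinoid metabolism rose and 1 fell. The shares called were 29.6%, 19% and 23.8%, beside 18.8% of all genes tested. With 1 library left out, the cyclic AMP counts went down to 1 and 0 without WT replicate 1. Of the pentose phosphate genes 1 fell without WT replicate 1 or 2 or KO replicate 2 or 3, and 5 rose without OE replicate 2. Of the xenobiotic genes 2 rose without WT replicate 1 or KO replicate 2, none fell without KO replicate 2 or 3, and 2 or 3 fell without WT replicate 2 or 3, KO replicate 1 or OE replicate 2. Ion channel genes had 6 of 27 higher and 2 lower (5 lower without WT replicate 2, and 4 without OE replicate 1 or 2). With all libraries 29.6% were called, beside 18.8% of all genes tested. CACNA2D1, an auxiliary calcium channel subunit, was at 120.9, 115.5 and 158.8 CPM in WT and 305.9, 376.7 and 474.2 CPM in KO (1.55 ± 0.18). KCNK2, a background potassium channel, rose by 0.88 ± 0.15.

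Ribosomal protein genes were lower where they differed. Of 72 tested none rose and 17 fell (23.6%, beside 18.8% of all genes tested), with a median of -0.32. RPL10, in the chromosome X block, was at 786.6, 889.4 and 731.6 CPM in WT and 483.3, 467.1 and 408.4 CPM in KO (-0.83 ± 0.13). All 4 tested members on chromosome 9 fell (median -0.54), among them RPL12 (-0.64 ± 0.13), and of the 63 outside the blocks and chromosome 9, 11 fell (median -0.30), among them RPS27 (-0.52 ± 0.12). Together the ribosomal protein genes took 5.47%, 6.63% and 5.03% of counts in WT and 4.77%, 4.46% and 3.99% in KO, and WT replicate 2 stood highest. The count depended on single libraries: 11 fell without WT replicate 1, 4 without WT replicate 2, 27 without WT replicate 3, 6 without KO replicate 2, 3 without KO replicate 3 and 37 without OE replicate 2. The fifth of genes with the shortest transcripts had a median of -0.10 and the fifth with the longest 0.09, and the part of transcript length in these counts was not tested.

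Most genes of the respiratory chain and the proteasome did not pass the test. The shares called were 2.94% and 2.63%, beside 18.8% of all genes tested. Of 68 nuclear respiratory genes none rose and 2 fell, NDUFA8 and NDUFB6, which are the 2 tested members on chromosome 9. Neither passed without WT replicate 1 or 2 or KO replicate 2 or 3 (adjusted p up to 0.15). Respiratory genes that fell numbered 1 without OE replicate 1 or 3 and 4 without OE replicate 2, and 1 rose without WT replicate 2 or OE replicate 2. Of 38 proteasome genes 1 fell, PSMB7, also on chromosome 9, and it lost the call without any library but KO replicate 1 and OE replicate 2 (adjusted p 0.0527 to 0.21). The 13 mRNAs of the mitochondrial genome had a median of 0.25, and 1 passed the test, MT-ND4, at 680.8, 560.5 and 722.3 CPM in WT and 773.4, 1065.4 and 933.3 CPM in KO (0.50 ± 0.14). No mRNA passed when WT replicate 2 or the KO replicates 2 or 3 were left out, whereas 3 passed without WT replicate 3 or KO replicate 1 and 2 without OE replicate 2.

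Chaperones of the endoplasmic reticulum and genes of the unfolded protein response had 7 of 28 lower and 1 higher. This is 28.6%, beside 18.8% of all genes tested. Of the 26 outside the blocks 6 were lower and none higher (23.1%, beside 16.2% of all genes there). HSPA5, the chaperone BiP, was at 1233.9, 1247.1 and 1157.2 CPM in WT and 822.5, 803.6 and 871.3 CPM in KO (-0.54 ± 0.10). It lies on chromosome 9 outside its block, CANX lies in the chromosome 5 end block, and ATF6, the 1 gene that rose (0.58 ± 0.11), in the chromosome 1 block. The number that fell was 4 without WT replicate 1 or 2 and 2 without KO replicate 2. Of 30 ATF4 targets and amino acid genes 4 rose and 6 fell (33.3%, beside 18.8% of all genes tested). ATF4 itself was at 121.9, 198.6 and 183.7 CPM in WT and 95.2, 101.3 and 104.9 CPM in KO (-0.74 ± 0.16), PPP1R15A, which ends the stress response, fell by 1.00 ± 0.16, and the amino acid transporters SLC1A5 and SLC7A5 rose by 0.84 ± 0.16 and 0.67 ± 0.14. In OE against WT, ATF4 was at -1.10 on the log2 scale, PPP1R15A at -0.05, SLC1A5 at 0.97 and SLC7A5 at 0.16. The number that fell was 3 without WT replicate 3 or any 1 KO library.

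Part of the cell cycle genes lie in blocks. Of 45 genes of mitosis and G2/M 5 rose and 4 fell, and 12 of the 45 lie in blocks. Of the 33 outside them 3 rose and 1 fell (12.1%, beside 16.2% of all genes there). CCNB1, the mitotic cyclin, was at 494.2, 589.5 and 463.5 CPM in WT and 292.3, 315.0 and 306.9 CPM in KO (-0.76 ± 0.11), in a lower block of chromosome 5, and PTTG1 and HMMR fell by 0.90 ± 0.13 and 1.25 ± 0.19 in the other. BUB3, a spindle checkpoint protein outside the blocks, fell by 0.62 ± 0.11. The number that rose was 1 to 3 without any 1 library but WT replicate 3 and the OE replicates 1 and 2. Of 47 genes of DNA replication 4 rose and 1 fell (10.6%, below the 18.8% of all genes tested). The gene that fell was PCNA in the chromosome 20 block (-0.60 ± 0.13). None of the 4 that rose passed without WT replicate 1, and 2 rose without any other 1 WT or KO library. Of 38 p53 targets and cell death genes 5 rose and 5 fell (26.3%, beside 18.8% of all genes tested). RRM2B, a ribonucleotide reductase subunit, rose by 0.99 ± 0.15 and the cell cycle inhibitor CDKN1A fell by 0.72 ± 0.12.

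Of 52 genes of lysosome and autophagy 5 rose and 5 fell (19.2%, near the 18.8% of all genes tested). The protease CTSB was at 363.4, 368.9 and 319.1 CPM in WT and 150.6, 137.9 and 120.6 CPM in KO (-1.36 ± 0.11, adjusted p = 4.41e-07), and GUSB, the lysosomal glucuronidase, fell by 0.96 ± 0.15. Of 44 genes of vesicle traffic 3 rose and 5 fell (18.2%, near the 18.8% of all genes tested). The number that fell was 3 without KO replicate 3. RAB11A, of recycling endosomes, rose by 0.54 ± 0.10, and RAB32 and RAB6B fell by 1.29 ± 0.25 and 1.43 ± 0.29, beside the loss of RAB31 counts. In antigen presentation and the interferon response 4 of 38 rose and 2 fell (15.8%, below the 18.8% of all genes tested). HLA-E, a class I molecule, fell by 0.86 ± 0.16 (1 fell without WT replicate 2 or the KO replicates 2 or 3), and the viral RNA sensors IFIH1 and OAS1 rose by 0.94 ± 0.19 and 0.81 ± 0.17. Complement, coagulation and inflammation genes had 10 of 36 higher and 6 lower, outside the blocks 5 and 4 of 28. The shares called were 44.4%, beside 18.8% of all genes tested, and 32.1% outside, beside 16.2% there. CD46, a complement regulator outside the blocks, was at 167.8, 167.5 and 167.9 CPM in WT and 320.2, 356.1 and 393.5 CPM in KO (1.09 ± 0.12), and C5, on chromosome 9, fell by 1.64 ± 0.17.

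Of 1104 long non-coding RNA genes tested 122 were called (11.1%, below the 18.8% of all genes tested), 51 higher and 71 lower. AFAP1-AS1 went from 0.226, 0 and 0.23 CPM in WT to 4.44, 4.75 and 6.52 CPM in KO (4.96 ± 0.67) and ZFHX4-AS1 from 3.66 ± 0.22 to 13.9 ± 2.59 CPM. LINC00221 fell from 12.6, 9.54 and 12.2 CPM to 0.234, 0.216 and 0 CPM, and LYPLAL1-AS1 from 53.5, 65.2 and 52.7 CPM to 8.76, 13.4 and 14.1 CPM (-2.23 ± 0.18). LINC02506 rose by 1.57 ± 0.19 in a chromosome 4 block and LINC01451 fell by 2.51 ± 0.23 in the chromosome 9 block. The counting command in the file headers sets no strand option, and by default the counter ignores strand, so reads shared by an antisense gene and its partner cannot be assigned to either.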

How the data were processed

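Polyadenylated RNA of 9 H295R libraries, 3 each labelled WT, KO and OE, was analysed as the deposited counts of reads per gene, which the authors made with featureCounts 1.5.2 and Ensembl release 101 on GRCh38, per the file headers. The submitters' processing notes also name FastQC, HISAT2 1.03, Subread, featureCounts 0.1.0 and DESeq2. The command in the headers sets no option for strand, paired ends or multiply mapped reads, so the defaults of featureCounts apply, which ignore strand and leave out multiply mapped reads. Whether the library kit keeps strand is not stated. Of 60671 genes listed, 60401 (99.6%) matched a symbol and 58453 (96.3%) a biotype. No line lacked a gene identifier.

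Counts were scaled by TMM and filtered (filterByExpr, minimum count 10), which left 14150 genes. They were fitted with edgeR 4.0.16 (R 4.3.3) by the quasi-likelihood test over all 9 libraries with the group as the only term. P-values were adjusted over all tested genes by Benjamini-Hochberg, and the threshold was 0.05. The standard error is the log2 fold change divided by the root of the F statistic, and CPM are TMM-scaled. Intervals of ratios cover counting error at a level of 95%. Floors divide the mean of the higher group by 3 counts per library and carry no interval. Simulated data of the same size had a common spread for all genes and 100 changed genes of each size. In them 67% of genes changed by 1 on the log2 scale and 11% of those changed by 0.5 were recovered, with 3 false calls.

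Genes were named by rule, with SGPL1 first. Outside the blocks the 10 largest rises and falls were taken, and inside them 5 and 5. These were called protein-coding genes of at least 5 CPM whose groups do not overlap. Also taken were 5 and 5 long non-coding genes and the most abundant called genes. Lists other than those of markers gave up to 4 called members each. The limit was 8 for cholesterol biosynthesis, steroid synthesis, glycolysis, sphingolipid metabolism, extracellular matrix and cell adhesion. The text gives a selection of these, and some genes that the counts of the lists include are not reported here by name or drawn. The members, the blocks and the 48 gene lists (6 of markers) were chosen with earlier results of these data known. Alternatives were DESeq2 1.42.0, limma 3.58.1 (voom), other scalings and filters, other block rules, the 6 WT and KO libraries alone, a replicate block and each library left out. Deviations of same-numbered WT and KO libraries correlated at 0.06, -0.035 and 0.172. With 3 libraries a group, these values do not settle whether the numbers pair the samples.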

Additional observations from a re-analysis of the deposited data

How the results depend on the processing

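SGPL1 kept its direction and its call under every alternative run, from -1.05 to -0.90 with 1 library left out. Of 228 genes chosen by the naming rule none reversed under any alternative, and 39 were not called under at least 1. The number of genes called was 1764 (without KO replicate 2) to 3214 (without OE replicate 2) with 1 library left out, 2920 with DESeq2 and 2663 with limma-voom. Outside the blocks it was 1350 (without KO replicate 2) to 2607 (without OE replicate 2). Library totals alone gave 810 higher and 1277 lower outside the blocks, and upper quartile scaling 873 and 1266. Over all genes the share of calls that were higher was 48.8%, 39% with library totals and 40.7% with upper quartile scaling, and these scalings moved the median of all genes by -0.054. The lists other than those of markers held 403 different called genes, and 289 to 481 with 1 library left out. The number of blocks was 6 with the widest windows and 5 at a threshold of 0.5, 17 with 31-gene windows, 16 at a threshold of 0.3, and 11 to 15 with 1 library left out. With the replicate number as a block, 3235 genes were called, 2617 of them outside the blocks and 491 in lists other than markers. SGPL1 was then at -0.97 (edgeR adjusted p = 5.01e-06). In WT replicate 3 and KO replicate 3 the deviations correlated best with their own number, and for the other numbers they did not both do so. Depth limits low genes, and the median standard error was 0.187. Changes of 0.5 were mostly not recovered in the simulated data, which had a common spread for all genes and 100 changed genes of each size. With 2655 genes called in the real data, smaller changes passed, among them GAPDH at 0.49. The simulation therefore does not give the detection limit of this comparison.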
